A study of Mus musculus with 7 samples.

Results

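The regions described here are the Runx3 enhancer regions of resting CD8-positive T cells (CD8-TC) that lie 5 to 50 kb from a gene start. Members were chosen by measured peak positions: a Runx3-bound region counted if 1 bp or more of it lay under an H3K4me1-marked region and its midpoint was at least 5 kb and under 50 kb from the nearest transcription start site (TSS) of any annotated transcript. Of 4934 Runx3-bound regions, 1845 (37.4%, 95% Wilson interval 36.1 to 38.8%) were members, which is 82.8% of the 2228 Runx3-bound regions at this distance and 47.4% of the 3889 with H3K4me1. These values follow from the rule and describe the set.

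Chromatin immunoprecipitation with sequencing (ChIP-seq) was carried out on splenic CD8-TC of wild-type ICR mice, freshly isolated without activation, fixed in 1% formaldehyde and frozen. Runx3 was precipitated with a polyclonal serum raised in the laboratory, and its 3 samples come from 2 repeats, since the labels give the first repeat as a pair of files. H3K4me1 was precipitated with a monoclonal antibody (2 libraries), and non-immune rabbit serum (NIS) served as control (2 libraries). Spleens of 18 mice were pooled, and positive selection on anti-CD8 magnetic beads gave a purity above 95%. Such beads take any cell with CD8 on its surface, which in mouse spleen includes a subset of dendritic cells, and no group lacked Runx3. Each antibody has 1 list of regions joined over its repeats, with positions and names but no height, read count or replicate value, so the depth behind a region is unknown here and errors between repeats cannot be given. Intervals and exact tests cover counting error over regions, and regions are not replicates of the cells.

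Runx3 belongs to the RUNX family of transcription factors, which bind DNA as a heterodimer with Cbfb and recognise the core TGTGGT. In CD8-TC it is known for silencing Cd4 and for maintaining Cd8 and the genes of cytotoxic function. Enhancers are stretches of DNA away from gene starts that raise transcription of a gene on the same chromosome, and monomethylation of histone H3 at lysine 4 is found on them whether active or poised. ETS proteins, which recognise a GGAA core, are partners of RUNX proteins at lymphocyte enhancers.

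The sequence at the midpoint of 8 members at genes of CD8-TC identity and function is shown first, since these loci return below. Each is the 200 bp around the midpoint on the plus strand of build mm9, from the reference strain and not from the ICR mice. Capitals mark matches to the RUNX motif, that is TGNGGN on either strand with T or C at each N. At each gene the member with the most matches was taken, and no member was nearest to Prf1, Ccl5 or Itgae.
Cd8b1, chr6:71292893-71293092: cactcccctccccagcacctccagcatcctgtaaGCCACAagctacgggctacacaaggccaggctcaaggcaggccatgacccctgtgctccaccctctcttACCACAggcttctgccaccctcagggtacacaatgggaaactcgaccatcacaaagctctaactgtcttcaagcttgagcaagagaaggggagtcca
Runx3, chr4:134654529-134654728: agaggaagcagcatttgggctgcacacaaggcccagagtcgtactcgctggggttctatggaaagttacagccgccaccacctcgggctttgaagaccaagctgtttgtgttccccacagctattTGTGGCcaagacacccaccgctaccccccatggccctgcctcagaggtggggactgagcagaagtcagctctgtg
Il7r, chr15:9504664-9504863: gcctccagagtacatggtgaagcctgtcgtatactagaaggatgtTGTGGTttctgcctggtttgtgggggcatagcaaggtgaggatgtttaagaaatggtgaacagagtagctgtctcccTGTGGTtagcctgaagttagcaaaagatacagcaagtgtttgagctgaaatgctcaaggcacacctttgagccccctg
Bcl2, chr1:108412359-108412558: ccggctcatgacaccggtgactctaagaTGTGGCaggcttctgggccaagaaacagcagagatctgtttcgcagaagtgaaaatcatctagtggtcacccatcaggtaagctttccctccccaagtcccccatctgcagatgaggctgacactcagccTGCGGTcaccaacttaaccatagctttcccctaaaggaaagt
Ets1, chr9:32517971-32518170: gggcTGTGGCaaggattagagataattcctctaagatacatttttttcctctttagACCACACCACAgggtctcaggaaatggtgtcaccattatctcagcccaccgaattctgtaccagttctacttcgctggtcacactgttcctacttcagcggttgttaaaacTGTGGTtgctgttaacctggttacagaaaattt
Ifng, chr10:117856268-117856467: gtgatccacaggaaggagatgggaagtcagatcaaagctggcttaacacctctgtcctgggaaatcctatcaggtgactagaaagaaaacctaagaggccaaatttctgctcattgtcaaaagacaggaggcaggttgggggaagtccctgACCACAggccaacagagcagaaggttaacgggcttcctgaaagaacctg
Gzmb, chr14:56914969-56915168: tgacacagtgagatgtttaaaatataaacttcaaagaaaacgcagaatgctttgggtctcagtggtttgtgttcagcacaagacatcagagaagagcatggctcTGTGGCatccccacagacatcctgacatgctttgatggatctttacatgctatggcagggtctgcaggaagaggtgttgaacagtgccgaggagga
Tcf7, chr11:52131993-52132192: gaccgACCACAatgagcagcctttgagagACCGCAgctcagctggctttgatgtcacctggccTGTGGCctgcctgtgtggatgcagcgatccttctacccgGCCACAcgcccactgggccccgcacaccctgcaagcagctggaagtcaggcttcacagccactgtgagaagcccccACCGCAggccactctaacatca

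At Cd8b1, the gene of the CD8 beta chain, the window lay 20163 bp downstream of the TSS, between Cd8b1 and Cd8a, and held 2 RUNX matches. At Runx3 itself the window lay 21938 bp upstream of the nearest protein-coding TSS and held 1 match. The window at Il7r, the receptor for the survival cytokine interleukin 7, lay 45133 bp upstream and held 2 matches. The window at Bcl2, an inhibitor of apoptosis, was 198392 bp from the nearest protein-coding TSS and counted as a member through a closer transcript not annotated as protein-coding. The window at Ets1, an ETS factor of T cells, lay in an intron and held 4 RUNX and 2 ETS matches. At Ifng, the gene of interferon gamma, the window lay 21735 bp upstream with 1 RUNX and 2 ETS matches, and at Gzmb, the gene of granzyme B, it lay 33972 bp upstream with 1 of each. At Tcf7, a factor of naive and memory T cells, the window lay 35412 bp upstream and held 5 RUNX matches and no ETS match.

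Windows with the most RUNX matches are shown next, because they mark the upper end of the motif count. Their nearest protein-coding genes were Sos1, Stx6, Znhit6, Rptor and Rps6-ps2.
Sos1, chr17:80867847-80868046: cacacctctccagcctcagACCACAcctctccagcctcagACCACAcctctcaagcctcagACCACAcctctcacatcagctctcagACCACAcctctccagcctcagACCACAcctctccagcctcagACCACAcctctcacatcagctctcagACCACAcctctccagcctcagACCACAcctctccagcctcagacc
Stx6, chr1:157020441-157020640: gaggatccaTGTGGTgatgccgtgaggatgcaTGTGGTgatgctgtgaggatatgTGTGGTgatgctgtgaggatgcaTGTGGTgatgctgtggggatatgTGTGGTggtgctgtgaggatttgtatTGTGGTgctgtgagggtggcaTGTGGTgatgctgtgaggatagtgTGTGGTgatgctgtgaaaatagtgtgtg
Znhit6, chr3:145200923-145201122: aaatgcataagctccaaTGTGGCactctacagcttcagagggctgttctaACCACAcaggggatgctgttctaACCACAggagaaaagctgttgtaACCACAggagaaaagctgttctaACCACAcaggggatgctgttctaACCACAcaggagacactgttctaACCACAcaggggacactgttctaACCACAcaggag
Rptor, chr11:119450653-119450852: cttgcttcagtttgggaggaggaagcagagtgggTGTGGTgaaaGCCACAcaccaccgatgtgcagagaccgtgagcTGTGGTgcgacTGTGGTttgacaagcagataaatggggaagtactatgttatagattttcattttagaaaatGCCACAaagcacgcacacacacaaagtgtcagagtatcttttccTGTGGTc
Rps6-ps2, chr8:91295187-91295386: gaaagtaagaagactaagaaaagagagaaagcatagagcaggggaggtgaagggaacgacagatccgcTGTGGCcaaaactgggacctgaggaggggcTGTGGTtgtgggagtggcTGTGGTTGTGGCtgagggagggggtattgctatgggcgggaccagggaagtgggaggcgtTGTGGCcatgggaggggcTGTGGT

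The Sos1, Stx6 and Znhit6 windows held 8 matches each and consist of short units repeated in tandem, so a match recurs with each unit. The Rptor and Rps6-ps2 windows held 6 matches each. High counts in a window were rare, since 46 of the 1845 members held 4 matches or more. Without these 46 members the RUNX share at midpoints was 76.0% against 29.4% in flanks, close to the values for all members given below.

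Within their range the members leaned towards the near end. A count of 528 (28.6%) lay 5 to 10 kb from a TSS, 631 (34.2%) lay 10 to 20 kb away, 350 lay 20 to 30 kb away, 209 lay 30 to 40 kb away and 127 lay 40 to 50 kb away. The median distance was 15070 bp (95% interval 14363 to 15685 bp). By midpoint, 53.8% (51.5 to 56.1%) were intronic, 2.87% were exonic and 43.3% were intergenic. The intron share was 66.0% in marked Runx3-bound regions 1 to 5 kb from a TSS, 31.0% in marked regions at 50 kb or more and 38.4% in the 383 Runx3-bound regions 5 to 50 kb away without H3K4me1. The distance that defines the classes bears on these shares. Members were downstream of their nearest TSS in 53.2% (50.9 to 55.5%) of cases.

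Width was 888 bp at the median (877 to 896 bp) and ran from 383 to 2077 bp. The median was 877.5 bp in marked regions 1 to 5 kb away, 902 bp in marked regions at 50 kb or more and 742 bp (720 to 759 bp) in unmarked regions 5 to 50 kb away. Wider regions meet a mark more easily, so width is partly fixed by the rule. Another Runx3-bound region lay within 10 kb of 24.3% (22.4 to 26.3%) of members, 27.5% of marked regions 1 to 5 kb away, 21.1% of marked regions at 50 kb or more and 4.96% (3.20 to 7.62%) of the unmarked regions 5 to 50 kb away. Another member lay within 10 kb of 20.3% and within 50 kb of 41.1% of members.

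H3K4me1 lay over most members rather than beside them. The midpoint fell inside a marked region in 93.4% (92.2 to 94.5%) of members, 77.1% were covered end to end and 10.9% touched at least 2 marked regions. Of the 121 members with a midpoint outside a mark, 60 (49.6%) touched at least 2 marks, with a median gap of 241.5 bp between those marks (161 to 318 bp). At the weak end of the rule, the smallest shared stretch was 15 bp, 5 members shared under 100 bp, and 15 unmarked regions at this distance lay within 1 kb of a mark. At the distance limits, the closest regions were 4996 bp (outside) and 5001 bp (inside) from a TSS at the lower limit, and 49943 bp (inside) and 50051 bp (outside) at the upper limit. When marks up to 1000 bp apart were merged, 97.5% of midpoints lay inside a mark.

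The members touched 1953 marked regions, 2.55% of the 76705 in the list, with a median width of 2647 bp against 979 bp over the list. Wide marks meet a region more easily, so this difference follows in part from the rule. Of the touched marks, 1868 held 1 member. A mark of 17566 bp at chr14:70671187-70688752, near Ppp3cc, the gene of a calcineurin catalytic subunit, held 4 members, as did a mark of 13671 bp at chr16:91441066-91454736 near Ifnar1 and Il10rb, which encode receptor chains for interferon and interleukin 10. Marks near Fli1 (23631 bp), Klf2 (19538 bp), Snx9, Pgpep1l, Mpeg1 and Prkch held 3 members each, and 77 further marks held 2.

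The RUNX motif was then compared between the 200 bp at the midpoint and a flank window of equal width 5 kb away on the far side from the nearest TSS. The motif was present in 76.6% (74.6 to 78.5%) of midpoint windows and in 29.6% (27.6 to 31.7%) of flanks. It was present only at the midpoint in 989 members and only in the flank in 122 (exact McNemar test, two-sided, Benjamini-Hochberg adjusted p = 8.53e-168). Over the 25 motifs and 2 motif pairs tested this way, 70.4% differed at an adjusted p under 0.05 and 66.7% were higher at the midpoint. The flank share also serves as the background for each motif in windows of the same length.

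Each of the 4 spellings of the RUNX core was higher at midpoints. TGTGGT was present in 60.0% of midpoint windows and 16.2% of flanks, TGTGGC in 27.2% and 14.3%, TGCGGT in 9.21% and 1.57%, and TGCGGC in 4.17% and 1.03% (adjusted p by exact McNemar test from 5.82e-155 to 5.03e-09). In discordant members, those with a match in only 1 of the windows, TGTGGT favoured the midpoint 7.85 to 1 and TGTGGC 2.33 to 1. The longer form TGTGGTTT was present in 19.2% and 2.01%, a discordant ratio of 11.6. T stood directly after the match in 49.7% of matches at midpoints and 37.0% in flanks, and T stood at the position after that, whatever came first, in 37.5% and 29.2%. The RUNX letters written backwards, NGGNGT with T or C at each N, served as a control of base composition. They rose from 17.0% in flanks to 21.5% at midpoints (exact adjusted p = 0.00111), a smaller step than that of any core spelling in discordant ratio (1.34), and they can share letters with a RUNX match.

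In the profile of matches around the midpoint, RUNX density was 7.36 matches per kb within 50 bp of the midpoint and 1.80 beyond 2 kb, a ratio of 4.09. ETS density was 5.99 and 3.23 matches per kb, a ratio of 1.85. The lists give no summit, yet both densities peaked around the midpoint: the outermost 50 bp bin above the mean of the near and distant densities was centred 75 bp away for RUNX and 125 bp away for ETS.

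**Figure D1:**
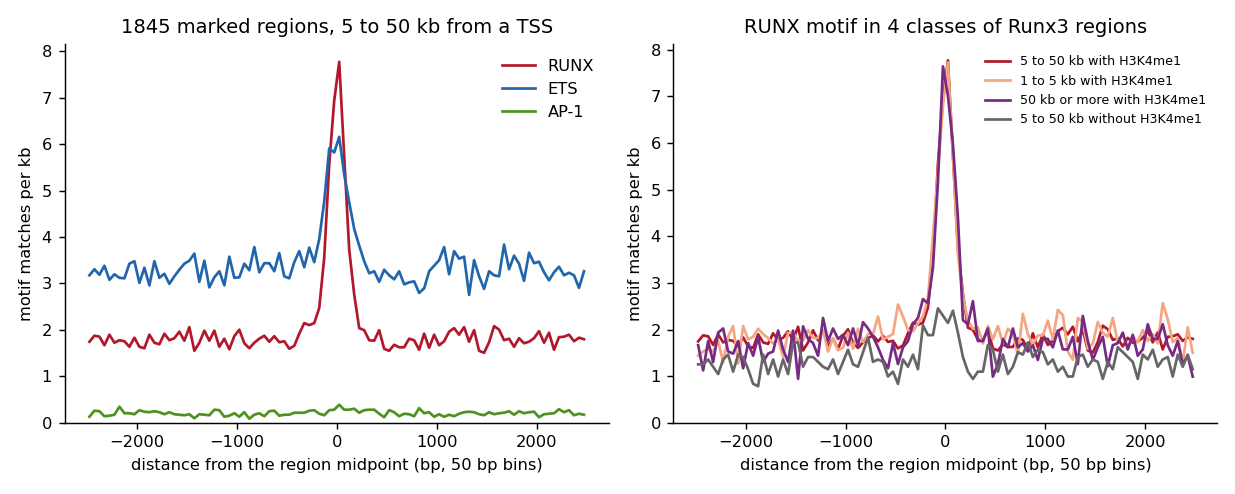
Motif matches per kb (y axis) in 50 bp bins against distance from the region midpoint in bp (x axis), with RUNX, ETS and AP-1 in the 1845 members on the left and RUNX in 4 classes of Runx3-bound regions on the right. RUNX density within 50 bp of the midpoint is 7.36 per kb in members and 2.22 per kb in regions 5 to 50 kb from a TSS without H3K4me1.

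A member usually held few matches: 432 (23.4%) held none in the 200 bp window, 734 held 1, 485 held 2, 148 held 3 and 46 held 4 or more. Over the whole region 95.8% held at least 1 match, with a median of 3, beside 76.7% of flanks of the same width. Only 78 members had no match anywhere.

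After RUNX and its spellings, ETS had the largest difference of the single motifs. The motif NGGAAN, with A or C at the first N and A or G at the last, was present in 69.5% (67.4 to 71.6%) of midpoint windows and 43.6% (41.4 to 45.9%) of flanks, with 721 members discordant towards the midpoint and 243 towards the flank (exact adjusted p = 6.12e-55). The same letters backwards, NAAGGN, stood at 50.2% and 50.6% (exact adjusted p = 0.870). RUNX and ETS shared a window in 987 members (53.5%), RUNX came without ETS in 23.1%, ETS without RUNX in 16.0%, and neither was found in 7.37%.

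A RUNX and an ETS match with starts at most 50 bp apart and no overlap were present in 39.3% (37.1 to 41.6%) of midpoint windows and 7.15% of flanks (668 members against 74, exact adjusted p = 1.57e-119). Both motifs rose at midpoints, so the pair rises with them, and the test does not ask whether they go together. ETS was present in 69.9% of midpoint windows with RUNX and in 68.5% of those without. No single arrangement held most pairs. With up to 24 bp between the motifs, ETS came before RUNX on the same strand in 209 pairs and on the opposite strand in 183, and after RUNX in 180 and 162. The fused form GGATGTGG, an ETS core joined to a RUNX core, was present in 9.92% (8.64 to 11.4%) of midpoint windows and 1.14% of flanks (180 against 18, exact adjusted p = 3.28e-34). It overlaps a RUNX match whenever T or C follows it. A RUNX match with a second RUNX match within 50 bp was present in 23.4% and 2.87% (exact adjusted p = 1.93e-81), a share that also rises with RUNX itself.

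Other motifs of lymphocyte factors moved by a few percentage points. The E-box of E proteins, CAGCTG or CAGGTG, was present in 26.9% of midpoint windows and 21.5% of flanks (exact adjusted p = 0.000310). TCF/LEF, the motif of Tcf7 and Lef1 (CTTTGAA or CTTTGAT), was present in 12.7% and 8.89% (exact adjusted p = 0.000532). In windows of 100 bp neither passed (exact adjusted p = 0.0619 for the E-box and 0.125 for TCF/LEF). KLF, CCACACCC, was present in 4.44% and 1.73% (exact adjusted p = 7.70e-06), and its other strand can run into a RUNX match. SP1 (GGGCGG) was present in 5.53% and 3.31% (exact adjusted p = 0.00166), and the NF-kB motif in 2.44% and 0.867% (exact adjusted p = 0.000532), a call lost with the flank on the side of the nearest TSS (exact adjusted p = 0.0937).

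AP-1, TGACTCA or TGAGTCA, the motif of Fos and Jun proteins that rise on T-cell activation, was present in 5.75% of midpoint windows and 3.79% of flanks (exact adjusted p = 0.00969). With the flank on the side of the nearest TSS this call was lost (4.28%, exact adjusted p = 0.0715). The T-box motif GGTGTGA, recognised by T-bet and eomesodermin, was present in 4.44% and 2.98% (exact adjusted p = 0.0323), and in a 100 bp window in 2.11% and 1.95% (exact adjusted p = 0.849). The Ikaros motif TGGGAA was the exception in direction, at 13.7% against 16.6% (exact adjusted p = 0.0235, and 0.0513 in windows of 100 bp). The motifs of GATA, of NFAT (TGGAAAA), of IRF, of STAT, of FOXO (TGTTTAC), of MYB (NAACNG, with T or C at the first N and G or T at the last) and of CTCF did not pass the test, with adjusted p from 0.0651 for FOXO to 0.844 for MYB.

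**Figure D2:**
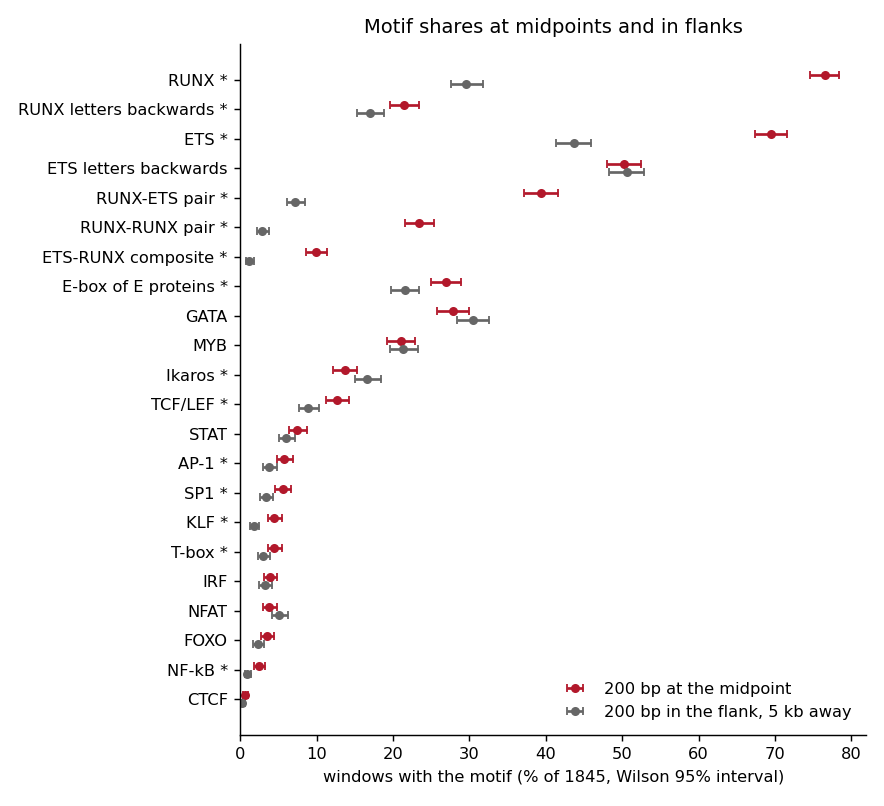
Share of the 1845 members with each motif (x axis, percent) in the 200 bp at the midpoint and in the 200 bp flank 5 kb away, with Wilson 95% intervals as bars and an asterisk for an adjusted p under 0.05 in the exact McNemar test. RUNX moves from 29.6 to 76.6% and ETS from 43.6 to 69.5%, while the backward ETS letters stay at 50.6 and 50.2%.

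A search was also made with no chosen motif. Of all 2080 distinct 6-mers, with both strands counted together, 14.1% (293) were higher at midpoints and 334 were lower by the exact McNemar test at an adjusted p under 0.05. ACCACA, the other strand of TGTGGT, ranked first. Of the first 20, 3 were RUNX cores, 7 held 5 adjacent letters of a RUNX core, 4 held GGAA or its complement and 6 were others, some of which share a shorter stretch with the core. Of all 293 that were higher, 247 were others. Among those in the first 20, AAACCA was present in 38.5% of midpoint windows and 17.3% of flanks, CACATC in 25.9% and 10.8%, and CACTTC in 26.6% and 11.4%. These are not apart from RUNX and ETS by their letters. AAACCA lies within the other strand of TGTGGTTT and CACATC within that of GGATGTGG, and CACTTC can share letters with an ETS match. Median G and C content was 47.5% at midpoints and 45.5% in flanks.

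The 432 members without a RUNX match at the midpoint were examined for what they held instead. Of these, 354 held a match elsewhere in the region. ETS was present in 68.5% of their midpoint windows and 43.5% of their flanks (exact adjusted p = 3.14e-12, exact McNemar test), against 69.9% in members with RUNX. GGATGTGG was present in 3.70% and 0.463% (exact adjusted p = 0.0105), the E-box in 27.8% and 18.8% (exact adjusted p = 0.0105) and STAT, TTCNNNGAA, in 8.56% and 3.94% (exact adjusted p = 0.0297). TCF/LEF stood at 14.6% and 9.03% and FOXO at 5.56% and 2.31%, both with an adjusted p of 0.0602.

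Members were set beside the 3 classes most like them, to ask whether the mark or the distance went with a difference in sequence. Across 27 motifs and pairs in 3 classes, 19.8% of the 81 two-sided Fisher's exact tests passed an adjusted p of 0.05, and all 16 were against regions of the same distance without H3K4me1. RUNX was present in 28.5% (24.2 to 33.2%) of the 383 unmarked midpoint windows and in 22.2% of their flanks, against 76.6% in members (odds ratio 8.22, interval 6.42 to 10.5, exact adjusted p = 7.91e-69). ETS was present in 41.3% (odds ratio 3.25, interval 2.59 to 4.08) and the RUNX-ETS pair in 7.05% (odds ratio 8.55, interval 5.72 to 12.8). The pair needs both motifs, so its odds ratio follows in part from theirs. When a region counted as marked only with its midpoint inside a mark, the unmarked class held 504 regions, and the odds ratio was 4.61 for RUNX (41.1% of unmarked windows) and 4.31 for the pair (13.3%). Among the 383 windows unmarked by the main rule, the E-box was present in 14.9%, SP1 in 1.31% and KLF in 0.522%. GATA, spelled NGATAN with A or T at the first N and A or G at the last, went the other way, at 44.6% in these 383 windows and 27.8% in members (odds ratio 0.477).

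Base composition differed between these classes, with median G and C at 38% in unmarked windows and 47.5% in members. Among windows with 40 to 50% G and C, a comparison added after the values were seen, RUNX was present in 40.3% of 139 unmarked windows and 75.6% of members (odds ratio 4.59, exact adjusted p = 2.80e-14, Fisher's exact test). There, 6 of the 81 tests passed, and GATA was at 38.1% and 30.7% (exact adjusted p = 0.501). The backward letters, used as controls, also differed over all windows: those of RUNX were present in 12.5% of unmarked windows and 21.5% of members (odds ratio 1.91, exact adjusted p = 0.000265), and those of ETS in 40.7% and 50.2% (odds ratio 1.47, exact adjusted p = 0.00400). At 40 to 50% G and C, ETS was present in 43.2% of unmarked windows and 69.4% of members (odds ratio 2.99, exact adjusted p = 5.77e-08), and the RUNX-ETS pair in 11.5% and 38.8% (odds ratio 4.87, exact adjusted p = 4.03e-10).

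Against marked regions 1 to 5 kb from a TSS and at 50 kb or more, no motif passed. The 905 marked regions under 1 kb from a TSS were not tested. There RUNX was present in 71.0% and ETS in 67.4% of midpoint windows. SP1 was present in 24.5% of them, TGTGGT in 36.5% and TGCGGT in 22.2%, against 5.53%, 60.0% and 9.21% in members. RUNX was present in 79.0% of the 694 marked regions 1 to 5 kb from a TSS (odds ratio of members 0.871, interval 0.705 to 1.08, exact adjusted p = 0.620) and in 77.3% of the 445 at 50 kb or more (0.960, interval 0.750 to 1.23, exact adjusted p = 0.978). ETS stood at 69.2% (1.02, interval 0.842 to 1.23) and 72.4% (0.872, interval 0.693 to 1.10). At an unadjusted p under 0.05 the Fisher's exact tests gave 2 of 27 motifs for the near class, NFAT (3.79% in members, 1.87% in the class) and NF-kB (2.44% and 4.03%), and 0 of 27 for the far class. Within the members, RUNX was present in 74.2% at 5 to 10 kb and 78.1% at 20 to 50 kb (odds ratio 0.807, interval 0.618 to 1.05, exact adjusted p = 0.585), and ETS in 71.0% and 70.1%.

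**Figure D3:**
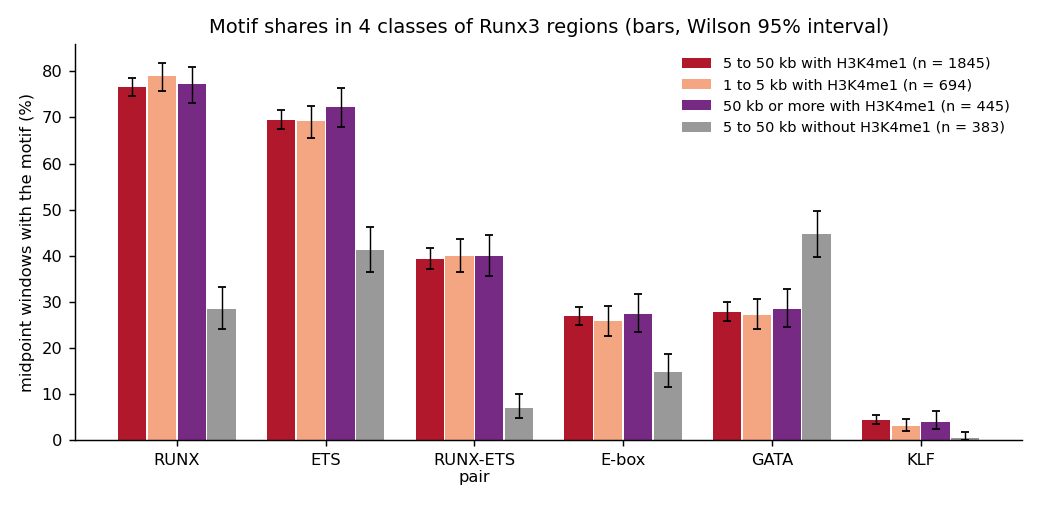
Share of 200 bp midpoint windows with 6 motifs (y axis, percent) in members and in 3 other classes of Runx3-bound regions, as bars from 0 with Wilson 95% intervals. The 3 marked classes shown lie close together, with RUNX at 76.6, 79.0 and 77.3%, and the unmarked class at 28.5%.

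For the genes, each member was linked to the nearest TSS of a protein-coding transcript. This gave 1387 genes, 6.25% of the 22202 protein-coding genes considered. One member each fell to 1080 genes, 214 genes had 2, 52 had 3, 26 had 4 and 15 had at least 5, so 41.5% of members lay at a gene with another member. The link is by position alone: 832 members lay within their nearest gene, 172 lay inside a protein-coding gene that was not the nearest, and 243 were 50 kb or more from a protein-coding TSS. Long genes and wide gaps between genes collect more regions, and their length was not set against these counts.

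The highest count was at Prkcq, the protein kinase C theta of T-cell receptor (TCR) signalling, with 7 members, 4 of them within the gene, 9402 to 124688 bp from its nearest coding TSS, and 4 of 7 held RUNX at the midpoint. Its relative Prkch had 5, all within the gene and 8704 to 40909 bp away. Ptprc, the phosphatase CD45, had 5 members on both sides of its TSS, and a mark of 32415 bp held 2 of them. The adaptors Fyb and Grap2, which link the TCR to the cell skeleton and to kinases, had 5 members each, the latter all 8959 to 23820 bp upstream and all with RUNX at the midpoint.

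Others with 5 members were Sorl1, Klf13, Fasl, S1pr1, Lbh, Gramd3, Btg1, Akap13, Mctp2 and Ets1. S1pr1 encodes the receptor through which lymphocytes leave lymphoid organs, and Fasl a death ligand of cytotoxic cells. Btg1 holds back proliferation. Ets1 had members at 44036, 20193 and 15483 bp upstream and at 10280 and 14444 bp downstream, all with RUNX at the midpoint, and 13 Runx3-bound regions of any class. With 4 members each came Atp10a, Zfp36l2, Enthd1, Rftn1, Cblb, Chd7, Ext1, Arhgef3, 4933412E24Rik and Ifnar1. Cblb is a ubiquitin ligase that restrains TCR signalling, and Zfp36l2 an RNA-binding protein that promotes decay of messages. Ext1 had ETS at 4 and RUNX at 1 of its 4 midpoints, and Zfp36l2 had ETS at 3 and RUNX at 1. Enthd1 and Grap2 are neighbours on chromosome 15, so their members lie in 1 stretch. The members nearest to Atp10a and 4933412E24Rik lay up to 265520 and 116087 bp from the coding TSS, and those beyond 50 kb counted through a closer transcript not annotated as protein-coding.

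**Figure D4:**
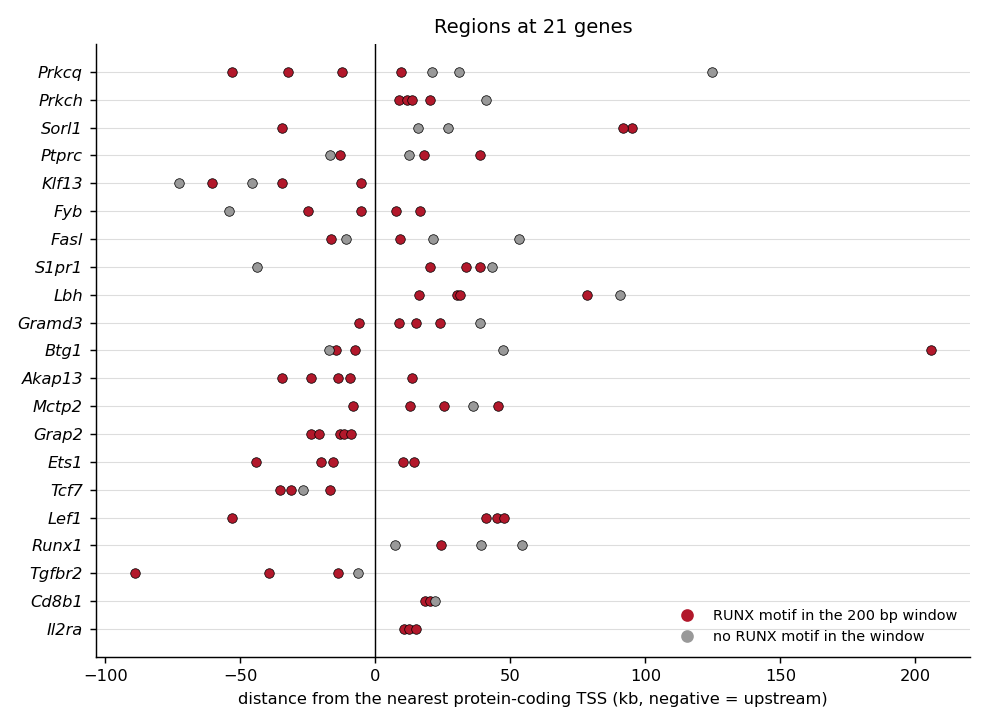
Distance of each member from the nearest protein-coding TSS in kb (x axis, negative for upstream) at 21 genes (y axis), 15 of them with the most members and 6 from the gene lists, with filled red points for members with a RUNX match in the 200 bp window and grey points for those without. Members at Ets1 and Grap2 are all red, and those at Grap2 and Tcf7 are all upstream.

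Genes were then read by role, in lists that were chosen with earlier results of these data known and are counted beside the 6.25% of all genes, without a test. Of 16 genes of the TCR-CD3 complex and proximal signalling, 10 had a member (median 1 per gene, 0 over all genes), and 15 had an H3K4me1-marked region 5 to 50 kb from a TSS. Of all 22202 genes, 8196 had such a marked region, and 16.9% of those had a member. Among the listed genes with a member, Cd3e, Cd247 (the zeta chain), Zap70, Lcp2, Csk and Fyn had 1 each. Lck, Lat, Cd3d, Cd3g, Themis and Ptpn22 had none. Lck and Themis were near 3 Runx3-bound regions of other classes each. At Zap70 the member lay 5245 bp downstream in an intron, with 2 RUNX matches.

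Of 15 co-receptor and costimulation genes, 7 had a member (median 0). Cd8b1 had 3, at 18564, 20163 and 22148 bp downstream of its TSS, and Cd8a had 1, at 15724 bp upstream. The stretch between these genes is known to hold enhancers of the CD8 locus. The first pair of the Cd8b1 regions were only partly under the mark (19.3% and 29.4% of their width) and the third was covered in full. Cd4, which Runx3 silences, had none but 1 Runx3-bound region of another class. Cd226 had 4, of which those in introns of Dok6 lay 128506 and 142943 bp downstream of the Cd226 coding TSS. Cd69 had 2, at 8080 and 9189 bp upstream and adjacent to each other, and Cd2, Cd6 and Cd44 had 1 each. Cd5, Cd27, Cd28, Icos, Slamf6, Tnfrsf9 and Tnfrsf4 had none. All of these but Cd5 were near Runx3-bound regions of other classes, with 4 at Cd28.

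Of 25 T-cell transcription factor genes, 15 had a member, 41 in all (median 1). Ets1 had 5. Fli1, Lef1, Runx1 and Tcf7 had 4 each, and Ikzf1, Klf2, Satb1 and Tox had 3 each. Of the Tox members, 1 lay 597639 bp upstream of the coding TSS and the others lay in introns, 20123 and 40375 bp downstream. The Tcf7 members lay 16630 to 35412 bp upstream, and 3 of 4 held RUNX. Of the Lef1 members, 3 lay 41146 to 47615 bp into the gene and 1 of these held 5 RUNX matches. The Klf2 members lay 31916 to 35462 bp downstream, in introns of Eps15l1 under 1 mark. Runx1 held its members in introns 7369 to 54379 bp downstream of coding TSSs, and RUNX was found at 1 of the 4 midpoints. Foxp1 and Prdm1 had 2, Foxo1, Id3, Zeb2 and Runx3 had 1, and Bcl11b, Cbfb, Gata3, Myb, Bach2, Ikzf3, Zbtb7b, Id2, Tbx21 and Eomes had none. Gata3 had 5 Runx3-bound regions of other classes. Bach2 had 45 marked regions 5 to 50 kb from a TSS with no member, but 2 Runx3-bound regions of other classes.

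The list with the highest share was cytokine receptors and signalling, with 17 of 25 genes and 32 members (median 1). Tgfbr2, a receptor chain for transforming growth factor beta, had 4 upstream members. Il2ra, the alpha chain of the interleukin 2 receptor, had 3 in introns, 10779, 12677 and 15008 bp downstream and all with RUNX. Il18r1, Il21r and Jak1 had 3, Ifngr1, Ifngr2, Il6st and Stat4 had 2, and Il7r, Il2rb, Il4ra, Il6ra, Il10ra, Il12rb2 and Stat5b were among those with 1. Il2rg, Tgfbr1, Jak3, Stat3, Stat5a, Socs1, Socs3 and Cish had none. Of cytotoxic effectors and cytokines, 7 of 16 had a member (median 0): Fasl with 5, Gzmb with 2 that adjoin each other under 1 mark of 3941 bp, and Ifng, Ccl3, Xcl1, Klrk1 and Klrd1 with 1. Prf1, the gene of perforin, and Nkg7 had none but 2 Runx3-bound regions of other classes each, and neither had a marked region 5 to 50 kb from a TSS.

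Of homing, adhesion and chemokine receptor genes, 8 of 16 had a member (median 0.5), among them S1pr1 with 5, Cxcr4 with 4, Ccr7 with 3, Ccr9 and Cxcr6 with 2, and Itga4 and Itgb7 with 1. The farthest Cxcr4 members lay 194757 and 201691 bp upstream, and the Itga4 member 134279 bp upstream. The Cxcr6 members lay in introns of Fyco1. Both Ccr9 members lay under 1 mark of 11114 bp. Itgae, which encodes the CD103 integrin chain, had 7 marked regions at this distance and no member, but 1 Runx3-bound region of another class. Of inhibitory receptors and negative regulators, 8 of 14 had a member (median 1), with 4 at Cblb, 2 each at Dusp10, Peli1 and Tigit, and 1 each at Pdcd1 (39510 bp upstream), Ctla4, Tnfaip3 and Dusp5. Lag3, Havcr2, Btla, Cd160, Nfkbia and Rgs1 had none.

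Of activation-induced transcription factor genes, 9 of 20 had a member in these resting cells (median 0), among them Fos, Myc, Egr3 and Nfatc1 with 2 and Jun, Egr1, Nr4a1, Nr4a3 and Nfkb1 with 1. The Myc members were 182349 and 190589 bp downstream, in introns of Pvt1, and the Jun member was 147741 bp upstream, in an intron of Gm12708. Survival and apoptosis genes had a member in 4 of 12 (Bcl2, Bcl2l11, Bcl10 and Fas) and mRNA decay genes in 1 of 6. Ribosomal protein genes, expressed in every cell, had a member in 0 of 16, a count too small to set apart from the 6.25% of all genes. All 16 carried H3K4me1 within 1 kb of a TSS, and 5 had a marked region at 5 to 50 kb.

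**Figure D5:**
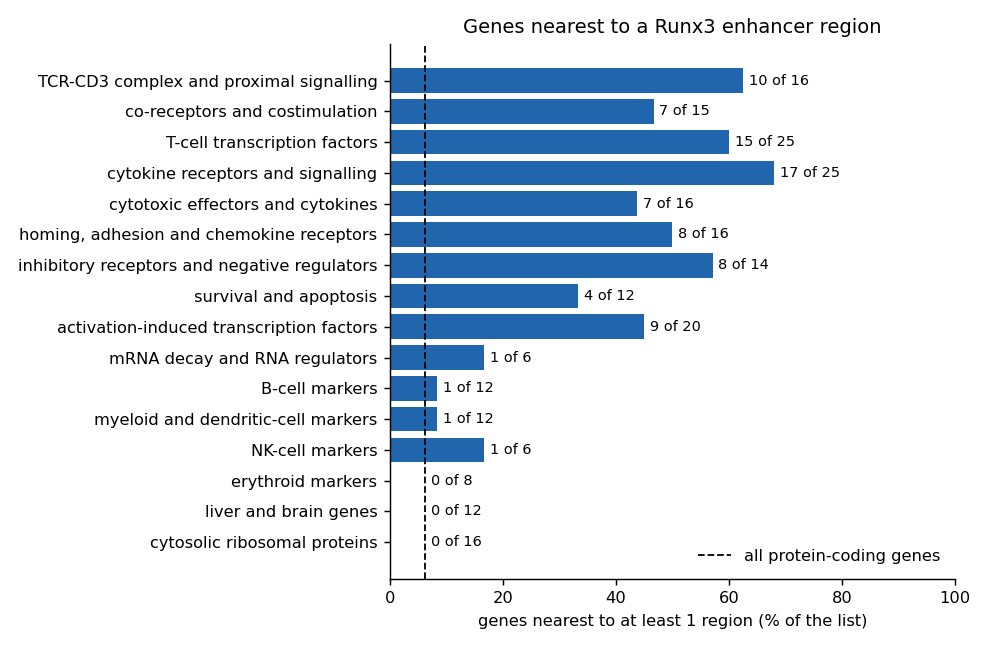
Share of genes in each list that were nearest to at least 1 member (x axis, percent), with the number of genes beside each bar and a dashed line at the 6.25% of all protein-coding genes. Lists from the TCR to activation-induced factors reach from 4 of 12 to 17 of 25 genes, mRNA decay is at 1 of 6, and erythroid, liver and brain, and ribosomal protein lists are at 0.

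Genes of other cell types were counted the same way. A member was nearest to 1 of 12 B-cell marker genes (Pax5), 1 of 12 myeloid and dendritic-cell genes (Emr1, the F4/80 antigen), 1 of 6 NK-cell genes (Klri2), 0 of 8 erythroid genes and 0 of 12 liver and brain genes. These counts are too small to set apart from the 6.25% of all genes. H3K4me1 lay within 1 kb of a TSS in 8 of 8 T-cell marker genes (Cd3e, Cd3d, Cd3g, Cd8a, Cd8b1, Lck, Cd2 and Cd5), but also in 11 of 12 B-cell genes, Cd79a included, 8 of 12 myeloid and dendritic-cell genes, 2 of 6 NK-cell genes, 3 of 8 erythroid genes and 3 of 12 liver and brain genes, beside 58% of all genes. Presence of H3K4me1 at a TSS thus does not check the labelled cell type, and the part of other cells in the marked list was not tested. Runx3-bound regions of any class were nearest to 3423 of all 22202 genes, to 15 of the 16 TCR genes and to 2 of the 12 B-cell genes, with 0 at Cd79a, Cd79b and Ms4a1.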

How the data were processed

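The authors mapped reads of 40 to 42 bp with ELAND to mm9, the submitters' processing notes naming CASAVA 1.6 and 1.7. They joined the repeats of each antibody, scaled the larger data set to the smaller and took peaks from MACS, with the NIS reads as control. The deposited lists hold positions in bp and names, with neither scores nor signal. The NIS control is shared by the Runx3 and H3K4me1 lists.

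Positions were used with the NCBIM37 (mm9) sequence and GENCODE release M1. All regions lay within its chromosome lengths. Motifs were searched on both strands in 200 bp at the midpoint and 5 kb away, in the same way in the other classes. IRF, NF-kB and CTCF were searched with consensus motifs that are not spelled out. Shares have Wilson and medians order-statistic 95% intervals. Paired shares were compared by exact McNemar tests and classes by Fisher's exact tests, two-sided, with Benjamini-Hochberg adjustment over 27 motifs and pairs, over 81 class tests, over 2080 6-mers, or over the tests of a subset. The regions, gene lists and motifs were chosen with earlier results of these data known, RUNX enrichment among them. Named genes were the 25 with the most members (ties by summed width), the genes of 16 lists, and for sequences the 6 windows with the most RUNX matches and 11 fixed loci, none on chromosome 18. Some items under this rule are not reported here. Emr1 and Sfpi1 are older symbols for 2 listed genes, matched through a RefSeq gene table of another build used for names only. The functions were tested on simulated data. Alternatives covered windows of 100 and 400 bp and the whole region, other flanks, member rules, gene links and merged marks. Python 3.11.15 with numpy 2.4.6, pandas 2.3.3, scipy 1.17.1, pysam 0.24.0 and matplotlib 3.10.9 was used.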

Additional observations from a re-analysis of the deposited data

How the results depend on the processing

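No paired analysis was possible because the peak lists used here are joined over the repeats, which were sequenced separately. The lists alone allow no repeat to be blocked or left out, and give neither depth nor peak height per region. The counts of members stayed within 1724 and 1837 under other rules for overlap, TSSs and distance. RUNX was higher at midpoints with an adjusted p under 0.05 under each window, flank and member rule run for it. The same held for ETS in 100 bp, 400 bp and whole-region windows and with a flank 2 kb away, and for the RUNX-ETS pair with a limit of 20 bp, in 400 bp windows and with a flank 2 kb away. Merging marks across gaps of up to 1000 bp left 0% of members touching more than 1 mark, as the merge itself implies, and put 97.5% of midpoints inside a mark. Linking each member to the nearest protein-coding gene on both sides gave 2364 genes in place of 1387. Of the 165 genes in the 10 lists of T-cell function and mRNA decay, 86 had a member, 72 with the nearest TSS of any transcript and 100 with a gene on both sides. Among windows with 40 to 50% G and C, 6 class tests passed in place of 16, over fewer windows. Some shares and odds ratios without a call changed direction. The midpoint minus flank difference of the backward ETS letters was 2.01 points with a flank 2 kb away and 1.14 points with the flank on the TSS side, and that of MYB was 0.705 points in 100 bp windows and 1.46 points with the TSS-side flank. In 100 bp windows the odds ratio of members to marked regions 1 to 5 kb from a TSS was 1.01 for RUNX, 0.949 for ETS and 1.03 for the RUNX-ETS pair. Against marked regions at 50 kb or more the odds ratio was 1.08 for RUNX in 400 bp windows, and for the pair 1.01 in 100 bp windows, 1.05 in 400 bp windows and 1.07 among windows with 40 to 50% G and C. None of these passed an adjusted p of 0.05 under either setting, and the cause was not tested. Other settings brought calls for GATA (flank 2 kb away), NFAT (100 bp), IRF (400 bp), STAT (TSS-side flank), FOXO (400 bp, flank 2 kb away) and CTCF (flank 2 kb away). The GC comparison, the tests of the other motifs under these settings, the limit on RUNX matches and the recount of gene lists were chosen after seeing the data.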
